A study of Mus musculus with 9 samples.

Results

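Integrins and homing receptors are the surface proteins by which haematopoietic stem cells hold on to the bone marrow niche, leave it for the blood and return to it. An integrin is a pair of an alpha and a beta chain that binds matrix or adhesion molecules on other cells, and its grip is switched on by chemokine signals such as CXCL12 acting on CXCR4. CD44 binds hyaluronan, PSGL-1 (the product of Selplg) carries the sugars that selectins on vessel walls recognise, and the tetraspanin CD9 organises integrins in the membrane. The genes described here are Itga4, Itga5, Itga6, Itgb1, Itgb2, Itgal, Cd44, Selplg, Cd9 and Cxcr4. They were taken by symbol from a table of 22322 genes, in which all 10 were present, and 9 of them passed the minimum of a mean of 1 FPKM (fragments scaled to transcript length and library size) that left 10866 genes for testing.

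RNA had been sequenced from long-term haematopoietic stem cells (LT-HSCs) of C57BL/6 mice 6 to 8 weeks old, sorted from bone marrow as lineage-negative cells positive for Sca-1, c-Kit and CD150 and negative for CD135 and CD48. The genotypes were wild type (WT), Cxcl10-/- (lacking the chemokine CXCL10) and Cxcr3-/- (lacking its receptor CXCR3), with 3 libraries each, and each library came from 500 to 800 cells of 1 mouse. How the alleles were made, and on which day each mouse was sorted, is not given in the sources used here. The question was how the members' transcript levels in LT-HSCs differed when the ligand or the receptor was missing.

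The 9 libraries held 12098498 to 17904629 expected counts. Cxcl10 itself was at 0 in all 3 Cxcl10-/- libraries, against 2.29, 5.03 and 0.15 FPKM in WT libraries 1, 2 and 3. In Cxcr3-/- it stood at 7.94 to 31.85 FPKM. WT library 3 held only 3 Cxcl10 counts, so this gene hardly parts it from Cxcl10-/-. Cxcr3 was at 0 FPKM in every library except WT library 3, at 0.26, so it could not check the Cxcr3-/- label. The summed FPKM of 13 LT-HSC and progenitor markers ran from 692 to 809 over the 9 libraries, with Ly6a (Sca-1) the largest at 194 to 379. Of the 13, Kit was called by edgeR in Cxcl10-/- against WT, where 7.22% of all genes tested were called. An unadjusted edgeR p under 0.05 was found for 4 of the 13, beside 2637 of all 10866 genes tested. Slamf1, which encodes the CD150 of the sort, stood at 0.69, 0.71 and 4.12 FPKM in Cxcl10-/- against 5.23 to 7.40 in WT, and Hoxb5 at 6.46 to 9.74 against 2.70 to 4.66, without a call for either. The Cxcl10-/- libraries stood apart from the rest in transcripts of other cell types and of stress. Their 10 endothelial markers summed to 424 to 620 FPKM, against 4.59 to 42.1 in the 6 WT and Cxcr3-/- libraries. Fabp4 alone held 287 to 455 FPKM of this sum in the Cxcl10-/- libraries, and Lyve1 was at 0 in all 3 of these libraries. Their 12 stromal and bone markers summed to 30.3 to 249 FPKM, against 0.79 to 3.95 in WT, where Adipoq, Bglap, Col1a1, Col3a1 and Dcn were at 0 in every library. In Cxcl10-/-, Bglap was also at 0 throughout, and Col1a1, Col3a1 and Dcn were above 0 only in library 2. Most of the sum came from Cxcl12 (14.1, 119 and 10.8 FPKM) and Ibsp (22.9, 81.5 and 16.2) in Cxcl10-/- libraries 1, 2 and 3. Their 16 immediate-early genes summed to 388 to 747 FPKM, against 76.2 to 88.9 in WT and 69.5 to 91.5 in Cxcr3-/-. Mitochondrially encoded genes took 3.57 to 4.13% of their counts, against 12.6 to 13.1% in WT and 10.2 to 11.2% in Cxcr3-/-. These differences lay between the same libraries as the comparisons below that use Cxcl10-/-, and their part in the members' values was not tested.

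**Figure D1:**
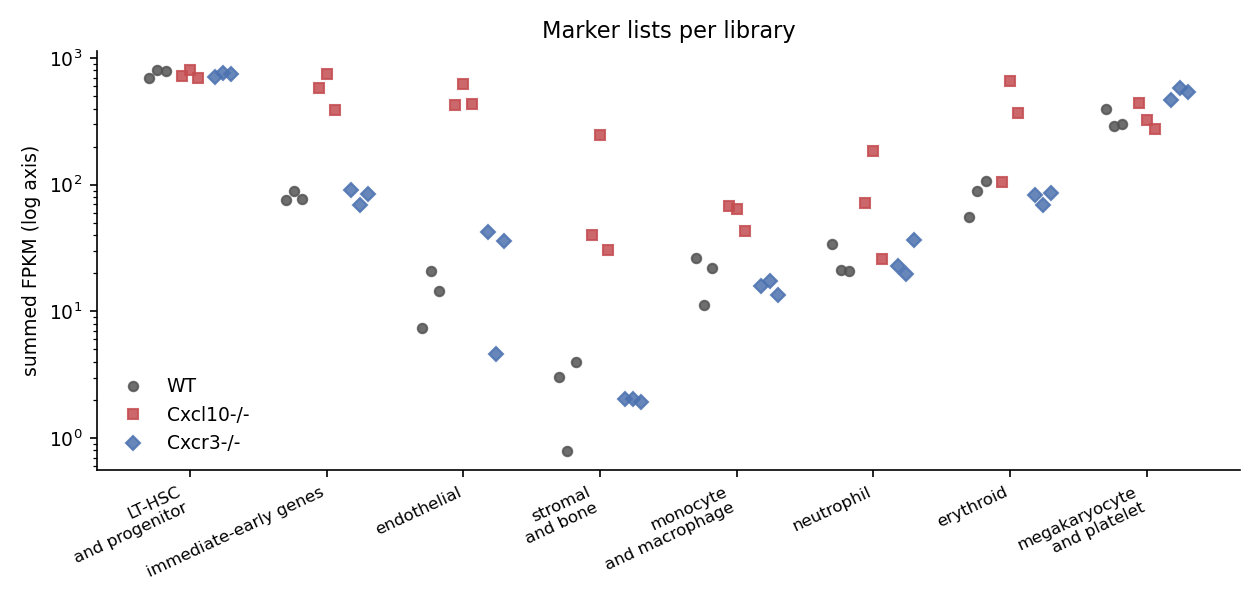
Summed FPKM of 8 marker lists (vertical log axis) in each of the 9 libraries, with 1 point per library and the genotype given by colour and shape. The Cxcl10-/- libraries lie above all others for the endothelial, stromal and immediate-early lists, while the LT-HSC and progenitor list runs from 692 to 809 in all 9.

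Promoter windows from RefSeq (GRCm38.p6; 250 bases before to 50 bases after the gene's start) were at hand for 6 of the 10 genes: Itga4, Itga5, Itgb1, Cd44, Cd9 and Cxcr4. They were searched on both strands for 3 short motifs, whose matches do not overlap in these windows. The AP-1 motif was TGANTCA, and AP-1 proteins include Fos and Jun, which are among the immediate-early genes above. The GATA motif was AGATAA, and GATA factors act in blood stem and progenitor cells. The ETS motif was CCGGAA, and ETS factors act there too. None of the 6 windows held the AP-1 letters, which are in 7.81% of all 32851 windows and in 4.86% of the 11149 windows of tested genes. The GATA letters were in 1 of the 6 (Cd44), against 11.2% of all windows and 6.51% of those of tested genes. The ETS letters were in 2 of the 6 (Itgb1 and Cd9), against 14.9% and 28.9%. The windows of Itga4, Cd44 and Cd9, the genes with the smallest p-values below, are shown in the sense of the gene with motif matches in capitals. They lie at chr2:79255176-79255475 on the plus strand, chr2:102901616-102901915 on the minus strand and chr6:125494711-125495010 on the minus strand.
Itga4: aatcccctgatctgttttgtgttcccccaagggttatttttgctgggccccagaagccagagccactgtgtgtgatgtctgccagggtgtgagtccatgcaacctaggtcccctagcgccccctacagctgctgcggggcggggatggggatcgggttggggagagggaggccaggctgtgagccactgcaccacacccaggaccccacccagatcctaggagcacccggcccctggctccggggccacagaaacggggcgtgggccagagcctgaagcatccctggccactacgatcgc
Cd44: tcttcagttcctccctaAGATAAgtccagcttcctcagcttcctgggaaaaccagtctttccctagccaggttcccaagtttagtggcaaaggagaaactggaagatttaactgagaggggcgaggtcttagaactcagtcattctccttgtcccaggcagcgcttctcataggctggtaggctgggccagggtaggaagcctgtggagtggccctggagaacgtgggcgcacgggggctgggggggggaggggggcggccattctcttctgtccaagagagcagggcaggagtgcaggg
Cd9: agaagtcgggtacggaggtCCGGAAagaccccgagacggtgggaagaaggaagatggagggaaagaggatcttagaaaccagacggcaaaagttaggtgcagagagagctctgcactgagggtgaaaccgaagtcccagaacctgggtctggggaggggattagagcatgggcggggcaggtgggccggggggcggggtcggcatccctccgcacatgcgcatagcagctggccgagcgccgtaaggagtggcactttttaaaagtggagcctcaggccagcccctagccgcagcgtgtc
The Itga4 window held none of the 3 motifs. The Cd44 window held AGATAA at position -233 from the start and the Cd9 window held CCGGAA at position -231. Their GC contents were 64.3%, 58.0% and 61.3%, against a median of 52.7% over all windows. The median over the windows of tested genes was not taken. A match of letters is a description of the window and not a binding site.

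Itga4 encodes the alpha 4 chain, which pairs with the beta 1 chain to form VLA-4, the receptor for VCAM1 and fibronectin that is best known for holding stem cells in the marrow. Of the 9 members tested, it was the only one called as different between genotypes, and that call did not hold under every other processing. The gene lies at chr2:79255426-79333123 on the plus strand (GRCm38, GENCODE M21). In WT libraries 1, 2 and 3 it stood at 22.1, 24.7 and 23.3 FPKM. Its levels were 16.9, 16.1 and 13.0 FPKM in Cxcl10-/- and 28.7, 21.6 and 20.7 FPKM in Cxcr3-/-. All 3 Cxcl10-/- libraries were thus below all 6 others, while WT and Cxcr3-/- overlapped. The means were 23.4 ± 1.31 FPKM in WT, 15.3 ± 2.05 in Cxcl10-/- and 23.7 ± 4.39 in Cxcr3-/- (SD, n = 3 libraries each).

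With edgeR's quasi-likelihood test on the counts, adjusted by Benjamini-Hochberg over all 10866 genes, Itga4 was lower in Cxcl10-/- than in WT by a log2 fold change of -0.70 ± 0.17 (SE; 95% interval -1.06 to -0.34; 0.615 of the WT level; adjusted p = 0.029). It was higher in Cxcr3-/- than in Cxcl10-/- by 0.65 ± 0.17 (interval 0.29 to 1.02; adjusted p = 0.0282). Against WT, the Cxcr3-/- value was -0.05 (interval -0.41 to 0.31; adjusted p = 0.997). Both calls rest on the same 3 Cxcl10-/- libraries and are not independent. In such bulk samples, a lower level may mean fewer cells with the transcript or less of it per cell, and the measurement cannot tell these apart. Itga4 was 1 member called of 9 tested in Cxcl10-/- against WT, where 7.22% of all genes tested were called, and 1 of 9 in Cxcr3-/- against Cxcl10-/-, where 10.5% were. Over the 3 genotypes together it was also the 1 member called (adjusted p = 0.0359, F test), against 8.39% of all genes. These shares of the members were near those of all genes.

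The Itga4 difference from WT was called in 13 of 21 other ways of processing and its difference between the knockouts in 11 of 21, with the same direction in every one of them. These are not 21 separate checks. Leaving out any Cxcr3-/- library kept the difference from WT at -0.70, as that genotype enters it only through the shared estimate of spread. The WT libraries stand outside the comparison of the knockouts in the same way. The first call was lost with limma on log2(FPKM + 1), at -0.58 (adjusted p = 0.144), on leaving out WT library 1, 2 or 3 (adjusted p = 0.0881, 0.12 and 0.0879) and on leaving out Cxcl10-/- library 3 (-0.62, adjusted p = 0.0568). The second was lost on leaving out WT library 2 or 3 (adjusted p = 0.0523 and 0.0521), Cxcl10-/- library 3 (0.064) or Cxcr3-/- library 1 (0.107). Fold changes followed GC content across genes in these data, with a Spearman's rho over 10856 genes of 0.43 in Cxcl10-/- against WT, as a description, and transcripts of Itga4 have a GC content of 45.4% (percentile 24.1 of the genes tested). With a GC content offset in each library the values were -0.30 (adjusted p = 0.313) and 0.34 (adjusted p = 0.22). That offset moved the median of all genes to 0.21 and -0.17, and relative to the median Itga4 was then at -0.52 and 0.51, against -0.76 and 0.70 without it.

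Itga4 was also the only member with fractional counts. Cerkl, a ceramide kinase-like gene, runs on the opposite strand at chr2:79330543-79456785 and shares 2581 bases with the end of Itga4. The sources used here do not say that counting used strand, so reads from the shared stretch cannot be told apart. Cerkl held 383, 112 and 37.1 counts in Cxcl10-/- libraries 1, 2 and 3, 80.9, 62.0 and 61.2 in WT and 60.1, 83.2 and 2.37 in Cxcr3-/-. Adding its counts to those of Itga4, an alternative chosen after seeing the data, gave -0.61 in Cxcl10-/- against WT (adjusted p = 0.0592) and 0.56 in Cxcr3-/- against Cxcl10-/- (adjusted p = 0.0675), neither of which passed the threshold of 0.05. All Cerkl counts were added, including any from outside the shared 2581 bases. This is the most that Itga4 could have lost to Cerkl.

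**Figure D2:**
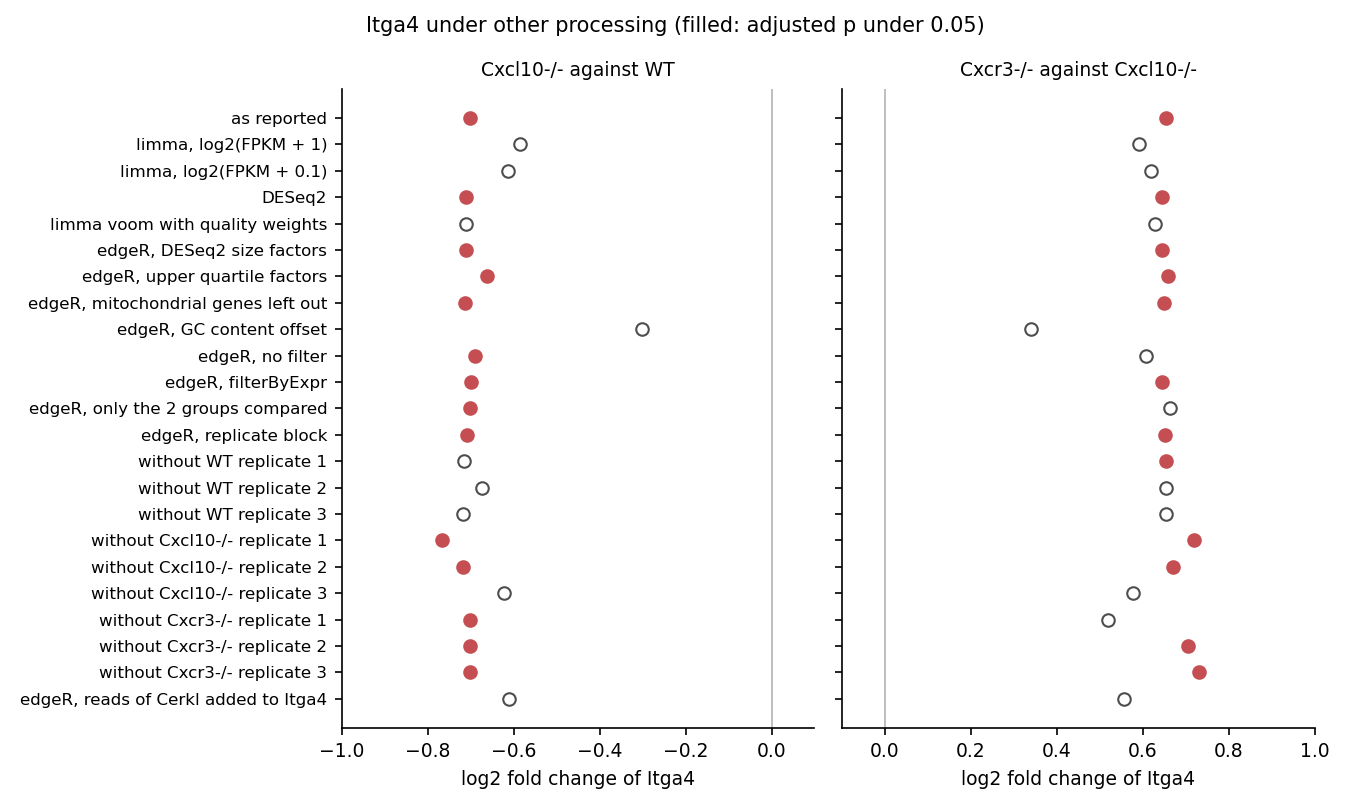
Log2 fold change of Itga4 (horizontal axes) as reported, under 21 other ways of processing and with the reads of Cerkl added, for Cxcl10-/- against WT and for Cxcr3-/- against Cxcl10-/-, with filled points where the adjusted p was under 0.05. Every value keeps its side of 0, and the GC content offset lies nearest to it at -0.30 and 0.34.

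Among the genes described here, the other 2 alpha chains that pair with beta 1 showed no call. Itga6, the alpha 6 chain of laminin receptors and a marker of primitive blood cells, stood at 13.2, 14.5 and 23.0 FPKM in WT, 16.4, 17.2 and 24.8 in Cxcl10-/- and 21.4, 17.4 and 18.1 in Cxcr3-/-. Library 3 was the highest in WT and in Cxcl10-/-, and all 3 genotypes overlapped. Its log2 fold change was 0.13 (95% interval -0.45 to 0.71) in Cxcl10-/- against WT and 0.10 (interval -0.48 to 0.68) in Cxcr3-/- against WT. Itga5, the alpha 5 chain of the fibronectin receptor VLA-5, was low throughout, at 1.11 to 2.26 FPKM in WT, 0.78 to 2.04 in Cxcl10-/- and 1.51 to 2.98 in Cxcr3-/-. It held 54 to 207 counts in a library, its coefficient of variation between libraries was 35.4 to 43.6% within a genotype, and its 95% intervals were -1.89 to 0.94 in Cxcl10-/- against WT and -1.35 to 1.47 in Cxcr3-/- against WT.

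Itgb1 encodes the beta 1 chain that Itga4, Itga5 and Itga6 products share. It stood at 37.6, 38.0 and 52.1 FPKM in WT, 30.1, 36.6 and 38.1 in Cxcl10-/- and 46.9, 38.8 and 34.0 in Cxcr3-/-. WT library 3 was the highest of all and Cxcl10-/- library 1 the lowest, and the genotypes overlapped. The log2 fold change was -0.37 ± 0.20 in Cxcl10-/- against WT (SE; interval -0.80 to 0.06; edgeR adjusted p = 0.28) and -0.15 ± 0.20 in Cxcr3-/- against WT (adjusted p = 0.973). With the GC content offset the first of these was 0.05, so that its sign turned, although it stayed below the median of all genes, which the offset had moved, by a log2 difference of -0.16.

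As a share of the summed FPKM of the 3 alpha chains, Itga4 made up 58.8, 61.3 and 48.0% in WT, 48.5, 45.5 and 33.8% in Cxcl10-/- and 55.7, 51.5 and 51.3% in Cxcr3-/-. The Cxcl10-/- shares overlapped those of WT through WT library 3 and lay below all 3 Cxcr3-/- shares. Itga6 made up 39.5 ± 6.84% in WT, 53.3 ± 9.44% in Cxcl10-/- and 42.5 ± 1.91% in Cxcr3-/- (SD, n = 3), and Itga5 between 2.02 and 7.09% in any library. The difference in the Itga4 share between Cxcr3-/- and Cxcl10-/-, 10.2 percentage points, had p = 0.1 in an exact two-sided permutation test, the smallest p that 3 against 3 libraries allow. Of 15 such tests on chain ratios, 5 reached 0.1, and the smallest adjusted p was 0.3. The sum of the 3 alpha chains over Itgb1 had a mean log2 ratio of -0.004 ± 0.0953 in WT, 0.06 ± 0.137 in Cxcl10-/- and 0.17 ± 0.0714 in Cxcr3-/- (SD, n = 3). The Cxcr3-/- values (0.114 to 0.248) lay above those of WT (-0.102 to 0.0888), with p = 0.1 in the same exact permutation test and an adjusted p of 0.3. Both the shares and this sum leave out alpha chains that are not among the genes described here, such as Itgav. Mean levels of Itgav were 29.2 FPKM in WT, 29.8 in Cxcl10-/- and 53.7 in Cxcr3-/-, above those of Itga4 in each genotype.

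**Figure D3:**
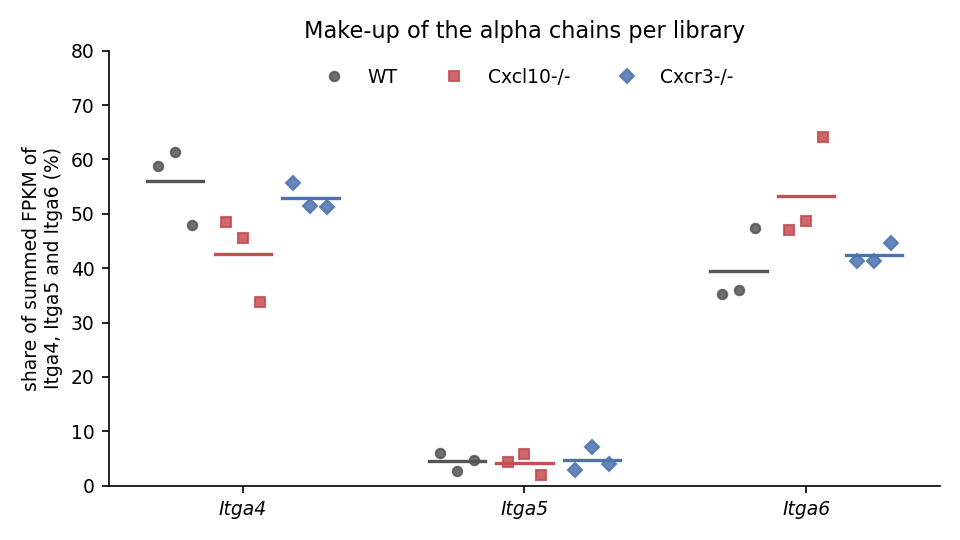
Share of the summed FPKM of Itga4, Itga5 and Itga6 held by each gene (vertical axis, %), with 1 point per library and lines at the genotype means. Itga4 holds the larger mean share in WT (56.0%) and Cxcr3-/- (52.8%) and Itga6 in Cxcl10-/- (53.3%), with WT and Cxcl10-/- overlapping in both.

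Itgb2 and Itgal encode the beta 2 and alpha L chains of LFA-1, the leukocyte integrin that binds ICAM molecules. Itgb2 stood at 4.52, 3.51 and 5.12 FPKM in WT, 7.35, 1.76 and 3.49 in Cxcl10-/- and 12.1, 6.96 and 4.26 in Cxcr3-/-. The 3 Cxcl10-/- libraries enclosed the WT range, and Cxcr3-/- library 1 was the highest. No comparison was called for Itgb2, and in Cxcr3-/- against WT its log2 fold change was 0.75 (interval -0.51 to 2.00; edgeR adjusted p = 0.924).

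Itgal was the member below the minimum level, at a mean of 0.989 FPKM, and entered no test in the main analysis. It held 36, 43 and 167 counts in WT, 22, 0 and 20 in Cxcl10-/- and 65, 48 and 111 in Cxcr3-/-. All 3 Cxcl10-/- libraries were below the 6 others, and the 0 in library 2 allows up to 3 counts at that depth. In an edgeR fit without the minimum, the log2 fold change was -2.38 in Cxcl10-/- against WT (interval -4.85 to 0.09; adjusted p = 0.299) and 2.53 in Cxcr3-/- against Cxcl10-/- (interval 0.05 to 5.01; adjusted p = 0.221), and neither passed. The ratio of Itgal to Itgb2, given on the linear scale because of the 0, was 0.142 to 0.467 in WT, 0 to 0.0917 in Cxcl10-/- and 0.107 to 0.549 in Cxcr3-/-.

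Cd44, the hyaluronan receptor, stood at 27.5, 48.6 and 44.5 FPKM in WT, 38.5, 28.0 and 29.5 in Cxcl10-/- and 54.5, 43.4 and 55.5 in Cxcr3-/-. Every Cxcr3-/- library was above every Cxcl10-/- library, and WT, whose library 1 was the lowest of all, overlapped both. The log2 fold change of Cxcr3-/- against Cxcl10-/- was 0.76 ± 0.23 (SE; interval 0.26 to 1.26) and missed the threshold at an edgeR adjusted p of 0.0551. It passed with DESeq2 (adjusted p = 0.013), without the minimum level (0.0246), without WT library 1 (0.0441) and without Cxcl10-/- library 1 (0.0279). Against WT, Cd44 was at -0.46 (interval -0.95 to 0.04; adjusted p = 0.244) in Cxcl10-/- and at 0.30 (interval -0.20 to 0.79; adjusted p = 0.924) in Cxcr3-/-.

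Selplg, the selectin ligand gene, stood at 75.2, 68.3 and 94.7 FPKM in WT, 87.8, 83.5 and 130.1 in Cxcl10-/- and 120.8, 83.0 and 80.8 in Cxcr3-/-. All 3 genotypes overlapped. Its log2 fold change was 0.32 ± 0.28 in Cxcl10-/- against WT (SE; interval -0.30 to 0.94; edgeR adjusted p = 0.538). In Cxcr3-/- against WT the sign depended on the unit, at -0.11 on counts and 0.24 on log2(FPKM + 1), and neither passed.

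Cd9 had the highest level of the 10 genes. It stood at 245, 204 and 222 FPKM in WT, 146, 139 and 192 in Cxcl10-/- and 165, 215 and 201 in Cxcr3-/-. Every Cxcl10-/- library was below every WT library, and Cxcr3-/- overlapped both. The log2 fold change of Cxcl10-/- against WT was -0.57 ± 0.19 (SE; interval -0.997 to -0.151; unadjusted p = 0.0119), and its edgeR adjusted p of 0.0922 missed the threshold. It passed with DESeq2 (-0.58, adjusted p = 0.0393) and without Cxcl10-/- library 3 (-0.77, adjusted p = 0.0336). With the GC content offset it was at -0.20 (adjusted p = 0.621), or at -0.42 relative to the median of all genes against -0.64 without the offset, and transcripts of Cd9 have a GC content of 45.9% (percentile 27).

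Cxcr4 is the receptor for CXCL12 and the main signal that brings stem cells to the marrow. It was low, at 1.93, 3.74 and 3.00 FPKM in WT, 1.68, 3.88 and 5.63 in Cxcl10-/- and 10.6, 4.29 and 7.42 in Cxcr3-/-. Every Cxcr3-/- library was above every WT library, and Cxcl10-/- overlapped both. The library counts were 41 to 245, and the log2 fold change of Cxcr3-/- against WT was 1.30 ± 0.67 (SE; 2.46-fold; interval -0.15 to 2.75; edgeR adjusted p = 0.843), which did not pass. In Cxcr3-/- against WT no member was called by edgeR, and 0 of the 9 had an unadjusted p under 0.05. Limma on both pseudocounts and limma voom also called 0 members there. DESeq2 called 0 of the 4 members to which it gave an adjusted p and gave none to Itga5, Itga6, Itgb2, Selplg and Cxcr4. Of all genes edgeR called 0 (0.0%), with 681 at an unadjusted p under 0.05, DESeq2 called 78 and limma voom 39.

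**Figure D4:**
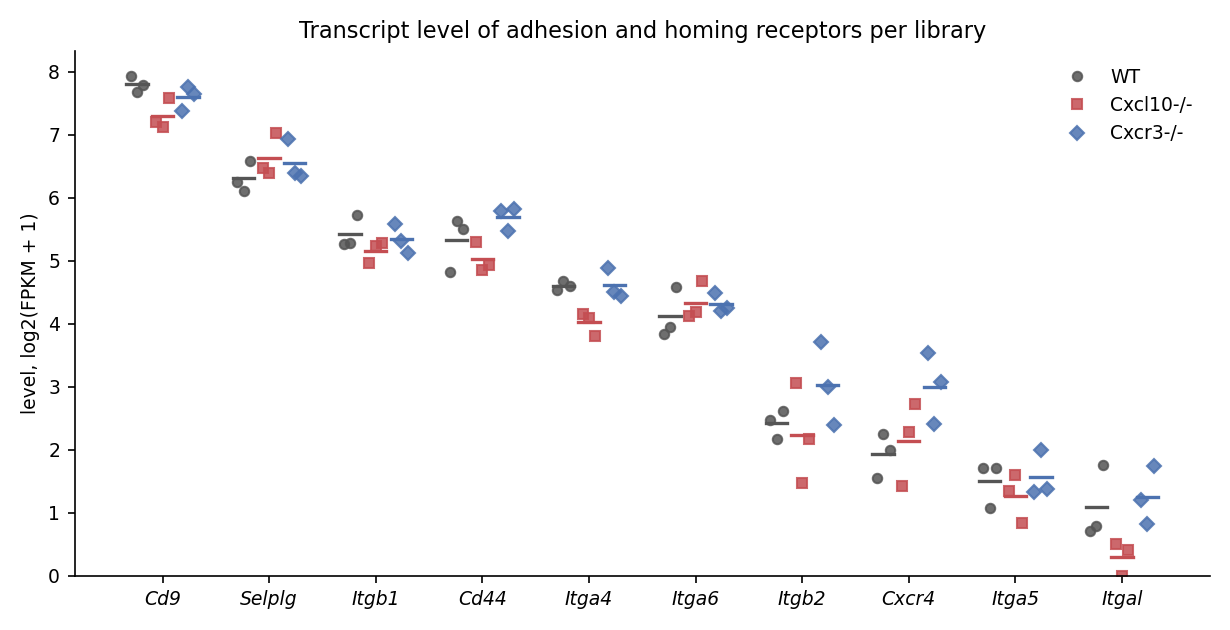
Level of the 10 genes as log2(FPKM + 1) (vertical axis) in each library, with lines at the means of these log values. Cxcl10-/- libraries lie below all WT libraries for Itga4, Cd9 and Itgal, and Cxcr3-/- libraries lie above all WT libraries for Cxcr4.

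**Figure D5:**
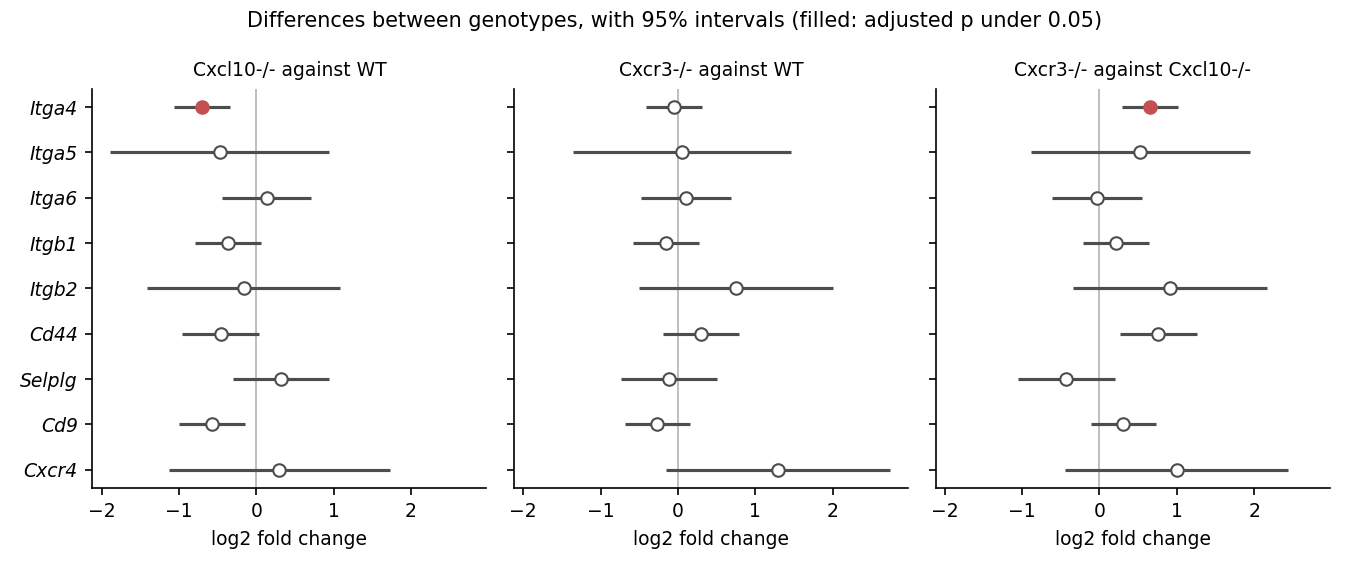
Log2 fold change (horizontal axes) of the 9 genes tested in the 3 comparisons, with 95% intervals from edgeR and filled points where the adjusted p was under 0.05. Only Itga4 is filled, at -0.70 and 0.65, and the intervals of Itga5, Itgb2 and Cxcr4 are the widest.

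In levels per length, the order in WT was Cd9 (223 FPKM), Selplg (79.4), Itgb1 (42.5), Cd44 (40.2), Itga4 (23.4), Itga6 (16.9), Itgb2 (4.38), Cxcr4 (2.89), Itga5 (1.88) and Itgal (1.25). Cd9 and Selplg stood apart from each other and from the rest in every genotype, with no overlap over libraries. Itgb1 and Cd44 overlapped in every genotype, as did Itga4 and Itga6, and so did Itgb2 and Cxcr4. In Cxcl10-/- the mean of Itga6 (19.5) was above that of Itga4 (15.3), and in Cxcr3-/- that of Cd44 (51.1) was above that of Itgb1 (39.9), each a swap between neighbours whose ranges overlap. Within single libraries, Itga6 was above Itga4 in 2 of 3 of Cxcl10-/- and Cd44 above Itgb1 in all 3 of Cxcr3-/-. Without overlap between groups in FPKM, as a count over the 9 genes tested, 2 members were lower in Cxcl10-/- than in WT (30.3% of all genes did not overlap, in either direction), 1 was higher in Cxcr3-/- than in WT (19.8%) and 2 were higher in Cxcr3-/- than in Cxcl10-/- (29.1%). The median log2 fold change of the 9 genes was -0.37 in Cxcl10-/- against WT, beside 0.06 for all genes tested, 0.06 in Cxcr3-/- against WT beside 0.02, and 0.53 in Cxcr3-/- against Cxcl10-/- beside -0.05.

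Around the receptors, 180 genes in 9 lists (130 of them tested) covered integrin activation and signalling, ligands, selectin ligand synthesis, CD44 partners, tetraspanins, the CXCR4 axis and other homing receptors. In Cxcl10-/- against WT, 5 of the 130 were called higher and 9 lower, or 10.8%, beside 7.22% of all genes tested. In Cxcr3-/- against WT edgeR called 0 of them, with 12 at an unadjusted p under 0.05, beside 681 of all 10866 genes. There, limma on FPKM called 0, and DESeq2 and limma voom called 1 each. In Cxcr3-/- against Cxcl10-/-, 10 were called higher and 9 lower, or 14.6%, beside 10.5% of all genes tested. Of the genes called, Cxcl12, Chst2 and Tspan7 passed the minimum level only through the Cxcl10-/- libraries, so they could be called only as higher there. Counts of single lists below are to be read against these shares, and of the genes called by edgeR that are named below, limma on log2(FPKM + 1) did not call Kit (adjusted p = 0.0662) and Pik3cg (0.0916) in Cxcl10-/- against WT, nor Tspan32 (0.0655) and Itgav (0.117) in Cxcr3-/- against Cxcl10-/-. Values of these list genes with the GC content offset, under which Itga4 was not called, are not given here. Over all genes, that offset moved the lower calls in Cxcl10-/- against WT from 402 to 155 and the higher calls from 383 to 517. Between the knockouts it moved the higher calls from 554 to 310 and the lower calls from 588 to 843.

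Among the ligands of the receptors, 3 of 10 tested genes rose in Cxcl10-/- against WT and none fell, where 7.22% of all genes tested were called in either direction. Cxcl12, which is among the 3, averaged 0.453 FPKM in WT and 0.117 in Cxcr3-/- and was tested only because of its level in Cxcl10-/-. It could enter the count only as a rise. Vcam1, the ligand of VLA-4, stood at 19.8 to 35.9 FPKM in Cxcl10-/-, 0.69 to 3.77 in WT and 1.54 to 5.70 in Cxcr3-/- (log2 fold change against WT 3.74 ± 0.64, SE; edgeR adjusted p = 0.00705). Cxcl12, the ligand of CXCR4, stood at 14.1, 119 and 10.8 FPKM in Cxcl10-/- against 0.01 to 1.24 in WT and 0 to 0.24 in Cxcr3-/-. It was highest in Cxcl10-/- library 2, as were the summed stromal markers. Cxcl12 is itself among those markers, however, and held 119 of their 249 FPKM in that library. Icam2, a ligand of LFA-1 that endothelium also carries, was the third gene (1.00 ± 0.27, adjusted p = 0.0474). In marrow, Vcam1 and Cxcl12 are made mainly by stromal, endothelial and macrophage cells. Their marker sums were higher in the same libraries, as given above for endothelium and stroma, and at 43.4 to 67.9 FPKM for the 10 monocyte and macrophage markers (Vcam1 among them) against 11.3 to 26.2 in WT and 13.5 to 17.3 in Cxcr3-/-. Their part in these values was not tested.

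Of 16 tested genes that activate integrins from inside the cell, 1 fell in Cxcl10-/- against WT. Rap1b, the small GTPase that relays chemokine signals to integrins, stood at 122 to 164 FPKM in Cxcl10-/- against 246 to 293 in WT and 250 to 261 in Cxcr3-/- (log2 fold change against WT -1.02 ± 0.14, SE; edgeR adjusted p = 0.00297). Between the knockouts, Rap1b (0.86 ± 0.14) and Rap1a (0.95 ± 0.18) were higher in Cxcr3-/-, and Itgb1bp1 (-0.97 ± 0.24), which restrains beta 1 activation, and Rasgrp2 (-1.25 ± 0.36), which activates Rap1, were lower. Among 21 tested genes of integrin signalling, the adaptor Nck1 fell (-0.95 ± 0.24) and the exchange factor Vav1 rose (1.36 ± 0.29) in Cxcl10-/- against WT. Crkl, an adaptor, was higher (1.16 ± 0.27) and Vav1 lower (-1.43 ± 0.29) in Cxcr3-/- than in Cxcl10-/-.

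On the CXCR4 axis, 2 of 22 tested genes rose in Cxcl10-/- against WT (Cxcl12 and Gnai2) and 4 fell (Rgs18, Gnai3, Cd164 and Pik3cg), where 7.22% of all genes tested were called. Here too Cxcl12 could count only as a rise. Gnai2 and Gnai3 encode the inhibitory G protein subunits through which chemokine receptors signal, and they moved in opposite directions (0.69 ± 0.19 and -0.89 ± 0.20, SE). Rgs18, a regulator that ends G protein signals, stood at 337 to 411 FPKM in Cxcl10-/-, 643 to 821 in WT and 370 to 453 in Cxcr3-/-. It was called in Cxcl10-/- against WT (-1.05 ± 0.15, edgeR adjusted p = 0.00369) and not in Cxcr3-/- against WT (-0.91 ± 0.15, adjusted p = 0.272), although all 3 Cxcr3-/- libraries were below all WT libraries. The difference between the knockouts was 0.14 ± 0.15 (adjusted p = 0.601). Between the knockouts, Pik3cg (1.02 ± 0.24) and Cd164 (0.91 ± 0.24) were higher in Cxcr3-/- and Cxcl12 lower.

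In the remaining lists few genes were called. C1galt1c1, the chaperone needed for the sugar core that selectin ligands are built on, fell in Cxcl10-/- against WT (-1.65 ± 0.38, SE; 1 of 14 tested), and the sulphotransferase Chst2 was lower in Cxcr3-/- than in Cxcl10-/- (-2.60 ± 0.57). Hmmr, a hyaluronan receptor that is also a gene of dividing cells, stood at 0.89 to 4.51 FPKM in Cxcl10-/- against 10.9 to 16.5 in WT and 14.0 to 16.5 in Cxcr3-/- (1 of 8 tested; -2.51 ± 0.47 against WT). Of 17 tetraspanins and partners edgeR called 0 in Cxcl10-/- against WT, with 3 at an unadjusted p under 0.05, beside 2637 of all 10866 genes. Cd63 (-0.69 ± 0.17) and Tspan7 (-4.17 ± 1.09), with Tspan32, were lower in Cxcr3-/- than in Cxcl10-/-. Kit, the stem cell factor receptor used in the sort, was the 1 of 18 other homing receptors called in Cxcl10-/- against WT (-0.75 ± 0.17), and Kit (0.83 ± 0.17) and Cd34 (0.79 ± 0.23) were higher in Cxcr3-/- than in Cxcl10-/-. Of 5 other integrin subunits tested, Itgav was called in Cxcr3-/- against Cxcl10-/- on counts (1.41 ± 0.36, edgeR adjusted p = 0.0295).

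The genes whose level over the 9 libraries was most like that of Itga4, by the root mean square difference of centred log2(FPKM + 1), were Ube2e1 (0.0877), Cast (0.109) and Mtfr2 (0.111), against a median of 0.576 over 10526 genes. A gene with the same level in all 9 libraries would lie at 0.315 from Itga4. Ube2e1, a ubiquitin-conjugating enzyme gene, had mean levels of 103 FPKM in WT, 73.4 in Cxcl10-/- and 100 in Cxcr3-/-. Cast, the calpain inhibitor gene, had 28.7, 20.6 and 29.2 FPKM in the same order, and Mtfr2 had 50.3, 32.5 and 54.7.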

How the data were processed

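Members, gene lists and tests were chosen with earlier results of these data known. The authors deposited 1 table with FPKM and expected counts for 9 libraries, per the file headers; the expected counts are taken as such because 87.1% of values are whole. Per the submitters' processing notes, fastp, HISAT2, StringTie and RSEM were used; the sources used here give no versions, genome build, annotation or use of strand. Here, gene positions come from GENCODE M21 (GRCm38), matched by Ensembl identifier.

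Expected counts were rounded. The 10866 genes averaging 1 FPKM or more entered a test in edgeR 4.0.16 (R 4.3.3) with TMM factors, 1 mean per genotype and Benjamini-Hochberg adjustment, called under 0.05. Standard errors were derived from the F statistic. Alternatives used limma 3.58.1 on log2(FPKM + 1) and log2(FPKM + 0.1), which understate changes of low genes, limma voom, DESeq2 1.42.0, other scalings and filters, a replicate block, and each library left out. The edgeR fit was tried on simulated data, and no conclusion is drawn from that here. It shares its estimate of spread over the genotypes. Over all genes tested, the median coefficient of variation between libraries was 38.6% for Cxcl10-/-, 24.5% for Cxcr3-/- and 20.2% for WT. Over the members these medians were 24.6%, 21.1% and 23.7%, respectively. How a shared estimate behaves under such unequal spread was not tested. Library totals of 12098498 to 17904629 counts set the depth, without molecular identifiers, so a floor of 3 counts covers counting error only. All members are named; of each list, the 2 called genes per direction with the smallest p were named, and a few further called genes after their values were seen. The Itgal to Itgb2 ratio had been planned on the log2 scale and is linear because of a 0. Libraries with the same replicate number did not deviate together (correlations of -0.085 to 0.025), so the numbers were not taken as pairs. The replicates are separate mice, per the design text.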

Additional observations from a re-analysis of the deposited data

How the results depend on the processing

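Of 565 fold changes of the 9 tested members with an adjusted p under other processing, 514 kept direction and side of the threshold, 20 lost a call (all Itga4), 6 gained one (Cd9 2 times, Cd44 4 times) and 25 changed sign, none of them a called value. Cxcl10-/- against WT had 1 member called, Cxcr3-/- against Cxcl10-/- 1 and the test over genotypes 1. Each count fell to 0 with limma on log2(FPKM + 1), with limma on log2(FPKM + 0.1), with limma voom and with the GC content offset, and rose to 2 with DESeq2. The second also fell to 0 with only the 2 groups compared in the fit, and without a filter its 1 member was Cd44 in place of Itga4. With libraries left out in turn the counts ran from 0 to 1, 0 to 2 and 0 to 1. Without Cxcl10-/- library 3 the 1 member called in Cxcl10-/- against WT was Cd9. In Cxcr3-/- against WT the count was 0 under every alternative run, where DESeq2 gave an adjusted p to only 4 of the 9 members.

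Same-numbered libraries did not deviate together, so the replicate block is no test of a paired design: with it the test over genotypes called 0 members, all genes called in Cxcl10-/- against WT went from 785 to 442 and over genotypes from 912 to 483, and the log2 fold change of Itga5 in Cxcr3-/- against WT was -0.033 and of Itga6 in Cxcr3-/- against Cxcl10-/- 0.018. Other sign changes came with the GC content offset in Cxcl10-/- against WT (Itgb1 0.051), in Cxcr3-/- against WT (Itga4 0.038, Itga5 -0.033) and in Cxcr3-/- against Cxcl10-/- (Itgb1 -0.122). With limma on FPKM, Itga4 in Cxcr3-/- against WT was 0.005 at both pseudocounts and Selplg 0.243 and 0.246. With limma voom, Itga6 in Cxcr3-/- against Cxcl10-/- was 0.005. With libraries left out, Cxcl10-/- against WT ran from -0.12 to 0.40 for Itga6, -0.81 to 0.211 for Itgb2 and -0.172 to 0.656 for Cxcr4. Cxcr3-/- against WT ran from -0.183 to 0.029 for Itga4, -0.338 to 0.245 for Itga5, -0.026 to 0.37 for Itga6 and -0.269 to 0.037 for Selplg. Cxcr3-/- against Cxcl10-/- ran from -0.148 to 0.222 for Itga6. The cause of these changes was not tested.

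Of all genes, 193 to 1003 were called in Cxcl10-/- against WT with a library left out and 414 to 1498 under the other alternatives, against 785. In Cxcr3-/- against WT these were 0 to 6 and 0 to 78, against 0, and in Cxcr3-/- against Cxcl10-/- 423 to 1407 and 423 to 1814, against 1142. The split of higher and lower calls in Cxcl10-/- against WT was 383 and 402, and with the GC content offset 517 and 155; between the knockouts it was 554 and 588, and with the offset 310 and 843. Medians in place of means moved 2.0 positions in the order of levels in each genotype. The 95% intervals of Itga5, Itgb2, Itgal and Cxcr4, which held at most 406 counts in a library, reached past 2-fold in at least 1 direction in every comparison.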
